A study of Mus musculus with 2 samples.

Results

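Immunoglobulin constant region genes encode the part of an antibody chain that sets its class. The 10 genes described here were chosen by name from the 54531 genes of the deposited expression table. They are 7 heavy chain genes (Ighm, Ighd, Ighg3, Ighg1, Ighg2b, Ighg2c and Igha) and 3 light chain genes (Igkc, Iglc1 and Iglc2). All 10 were found by their Ensembl identifiers, and 9 of them averaged 1 FPKM or more over the libraries (FPKM, the fragments of a gene divided by its length in kilobases and by the library's depth). The samples were haematopoietic stem cells (HSCs) sorted from mouse bone marrow. The control library is labelled with the genotype Angptl2fl/fl, floxed alleles of the gene for a secreted angiopoietin-like protein. The deletion library is labelled Cdh5-Cre;Angptl2fl/fl, these floxed alleles together with Cre recombinase under the promoter of the endothelial cadherin gene Cdh5, and its mice are described as deficient for Angptl2 in the endothelium. The design sets the transcripts of HSCs from these genotypes side by side. The libraries are called the floxed control and the endothelial deletion below.

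There was 1 library per genotype, so no difference has a replicate check, no test across samples was possible, and words such as higher or lower refer to this pair of libraries. The column and description of the floxed control name Cdh5 and Cre, while its title and genotype name the floxed alleles alone, so whether its mice carried Cre is not settled. The Cdh5 promoter is also active in the embryonic endothelium from which HSCs arise, and whether the HSCs themselves kept Angptl2 is not stated; it stood at 0.27 and 0.18 FPKM in control and deletion. The ages and numbers of the mice and the surface markers of the sort are not stated in the labels. Of the 12 HSC marker genes listed for this work all were above 0 in both libraries, with Kit, the stem cell factor receptor, at 54.3 and 48.8 FPKM and Procr, the protein C receptor, at 5.33 and 4.68 FPKM in control and deletion. The 11 of them that averaged 1 FPKM or more all had ratios below 0, with a median log2 ratio of -0.18. The depth, read from the smallest steps of the FPKM values, was 17378600 fragments in the floxed control and 16843100 in the endothelial deletion.

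An antibody is built from a pair of identical heavy chains and a pair of identical light chains. Each has a variable domain that binds antigen and a constant part, and that of the heavy chain binds receptors and complement. A B cell first joins variable segments to Ighm and makes IgM, and Ighd is read from the same transcript by splicing. Class switch recombination later deletes the DNA between the variable exon and a constant gene further downstream, so that the cell makes IgG, IgE or IgA with the same variable domain. Light chains use either the kappa locus, with its single constant gene Igkc, or the lambda locus, with several constant genes. Plasma cells, which live for long periods in bone marrow, carry these mRNAs at very high levels, while HSCs have not rearranged their immunoglobulin loci. In bulk RNA, fewer cells of a type and less RNA per cell cannot be told apart.

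Several of these genes are close copies, which bears on how well fragments can be assigned. The start of the lambda constant exon is shown over 120 coding bases for Iglc2, Iglc1 and Iglc3, a further lambda gene not among the 10. These were chosen because Iglc2 differed in the opposite direction to Iglc1 and Iglc3. The Iglc2 stretch is shifted by a single base so that it lines up with the others. Capitals mark bases that differ from Iglc2. The sequences are GENCODE M21 transcripts on GRCm38, all from the minus strand of chromosome 16, at chr16:19198733-19198852 (Iglc2), chr16:19065562-19065681 (Iglc3) and chr16:19061952-19062071 (Iglc1).
Iglc2: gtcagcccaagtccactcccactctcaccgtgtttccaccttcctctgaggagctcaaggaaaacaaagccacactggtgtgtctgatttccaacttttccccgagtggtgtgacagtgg
Iglc3: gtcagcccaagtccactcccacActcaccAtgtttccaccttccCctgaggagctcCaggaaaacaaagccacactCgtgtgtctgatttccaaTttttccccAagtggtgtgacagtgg
Iglc1: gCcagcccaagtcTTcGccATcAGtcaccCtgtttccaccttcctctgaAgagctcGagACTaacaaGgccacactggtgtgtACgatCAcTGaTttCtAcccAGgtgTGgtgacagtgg

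Over this stretch Iglc3 differs from Iglc2 at 7 bases and Iglc1 at 28. Over the whole coding sequence Iglc2 and Iglc3 are 96.2% identical, with a longest shared run of 79 bases in their transcripts, while Iglc1 and Iglc2 are 73.4% identical with a longest shared run of 19.

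The gamma genes, which encode the IgG subclasses, are shown in the same way over the first 120 bases of their first constant exon, because Ighg2c, Ighg2b and Ighg3 had the lowest ratios of the heavy chain. Capitals mark bases that differ from Ighg2c. All lie on the minus strand of chromosome 12 in GRCm38, at chr12:113288813-113288932 (Ighg2c), chr12:113307814-113307933 (Ighg2b), chr12:113330404-113330523 (Ighg1) and chr12:113361113-113361232 (Ighg3).
Ighg2c: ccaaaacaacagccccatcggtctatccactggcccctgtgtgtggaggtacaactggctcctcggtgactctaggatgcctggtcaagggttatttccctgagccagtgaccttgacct
Ighg2b: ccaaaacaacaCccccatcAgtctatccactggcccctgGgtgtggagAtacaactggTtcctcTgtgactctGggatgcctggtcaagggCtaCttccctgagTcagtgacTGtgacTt
Ighg1: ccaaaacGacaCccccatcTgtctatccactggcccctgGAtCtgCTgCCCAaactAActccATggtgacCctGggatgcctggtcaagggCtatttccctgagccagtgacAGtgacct
Ighg3: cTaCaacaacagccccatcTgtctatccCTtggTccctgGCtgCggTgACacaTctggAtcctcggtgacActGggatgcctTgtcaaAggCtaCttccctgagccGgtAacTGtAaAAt

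The short second exon, which encodes the hinge between the arms and the stem of IgG, sets these genes apart more clearly, also in length, and is shown for that reason in the same build and strand.
Ighg2c: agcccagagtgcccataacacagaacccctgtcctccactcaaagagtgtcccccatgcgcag
Ighg2b: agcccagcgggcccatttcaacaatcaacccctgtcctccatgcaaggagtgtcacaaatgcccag
Ighg1: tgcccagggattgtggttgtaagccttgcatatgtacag
Ighg3: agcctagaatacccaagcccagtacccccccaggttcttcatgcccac

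The hinge exons are 63 (Ighg2c), 66 (Ighg2b), 39 (Ighg1) and 48 (Ighg3) bases long. Ighg2b and Ighg2c are 85.7% identical over their coding sequence, with a longest shared run of 78 bases, and the other gamma pairs lie between 74.1% and 75.9%. Reads were 150 bases long. No 150-base window of the shorter transcript of any of the 10 genes or of Iglc3 occurs letter for letter in a transcript of another GENCODE gene. The mismatches allowed in alignment are not stated in the labels, so fragments of Iglc2 and Iglc3, and of Ighg2b and Ighg2c, may still have been exchanged.

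Constant region mRNA was lower in the endothelial deletion for most genes, not different beyond counting error for Ighm, and higher for Iglc2. On the log2(FPKM + 1) scale, 5 of the 10 genes were at least 2-fold lower (Ighg2c, Ighg2b, Iglc1, Ighg3 and Igkc), 1 was at least 2-fold higher (Iglc2) and 4 lay between (Igha, Ighg1, Ighd and Ighm). Among the 12325 genes of the table that averaged 1 FPKM or more, 3.38% were at least 2-fold lower, 2.47% at least 2-fold higher and 5.86% past 2-fold either way. Ighg3 and Iglc1, the members that were listed at 0 in the endothelial deletion, reached the mean of 1 FPKM through the floxed control alone. So did Ighg2c, which was at 0.31 FPKM in the endothelial deletion. The median log2 ratio was -1.16 over the 9 genes that averaged 1 FPKM or more and -1.07 over all 10, against -0.011 over the 12325 genes. Together the 10 genes held 18125 fragments (0.104% of the depth) in the floxed control and 10620 (0.0631%) in the endothelial deletion.

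**Figure D1:**
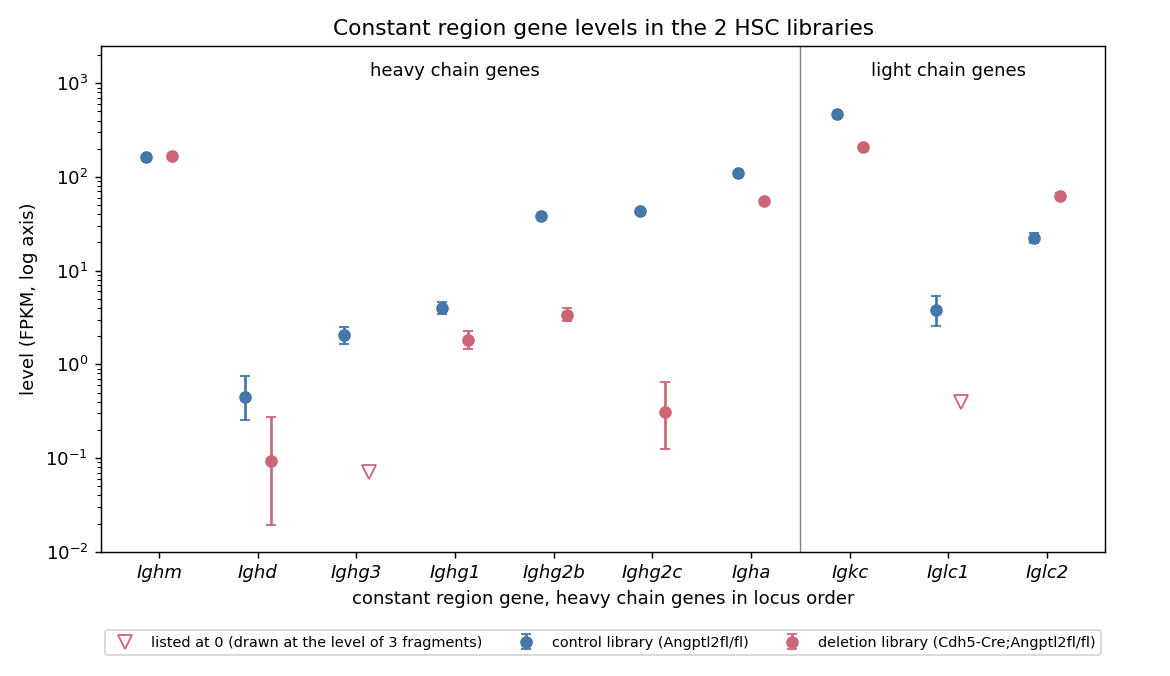
Level of each constant region gene in FPKM on a log axis, with 95% Poisson intervals of the fragment count, for control and deletion (1 library each). Ighm lies at 164 and 169 FPKM, the gamma genes and Igkc lie lower in the endothelial deletion, Iglc2 lies higher there, and open triangles mark Ighg3 and Iglc1, listed at 0 in the endothelial deletion and drawn at the level of 3 fragments.

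Ighm (chromosome 12, 113418558 to 113422730, minus strand, GRCm38), the gene of the mu chain of IgM, was at 164 FPKM in the floxed control and 169 FPKM in the endothelial deletion. These came from 5375 and 5370 fragments. The log2 ratio without a pseudocount was 0.044, with a 95% counting interval (exact Clopper-Pearson, counting error only) of -0.011 to 0.099 that included equality. By FPKM it was the highest heavy chain gene of both libraries, an order that turned for Igha in the floxed control with shorter transcript lengths. With both libraries rescaled to a common FPKM total its log2 ratio with the pseudocount was -0.10, a shift that the median of all genes shared, at -0.15.

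Ighd (chromosome 12, 113406604 to 113416324), the gene of the delta chain that naive B cells co-express with mu, was near the limit of detection. It was at 0.45 FPKM in the floxed control and 0.094 FPKM in the endothelial deletion, from 15 and 3 fragments. The plain ratio was 4.85-fold lower with an interval of 1.37-fold to 26.1-fold. With fragments divided by 6, a number chosen with the data in view to allow for duplicate copies, the log2 interval of -12.7 to 2.26 included equality.

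The gamma genes were together 15.7-fold lower in the endothelial deletion, at 5.54 against 87.0 FPKM. Their differences were of very unequal size. Ighg2c (chromosome 12, 113285325 to 113288932) was at 43.0 FPKM in the floxed control, from 991 fragments, and at 0.31 FPKM in the endothelial deletion, from 7 fragments. Its product, IgG2c, is a subclass that fixes complement and binds activating Fc receptors. The log2 ratio without a pseudocount was -7.10 (interval -8.42 to -6.05), a 137-fold difference that counting error alone places between 66.3-fold and 342-fold.

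Ighg2b (chromosome 12, 113302965 to 113307933), the gene of another complement-fixing subclass, was at 37.9 FPKM in the floxed control and 3.39 FPKM in the endothelial deletion. These came from 1766 and 153 fragments. The difference was 11.2-fold (interval 9.48-fold to 13.3-fold), and this interval does not overlap that of Ighg2c. By FPKM Ighg2c was above Ighg2b in the floxed control and below it in the endothelial deletion.

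Ighg3 (chromosome 12, 113356224 to 113361232), whose subclass often answers polysaccharide antigens, was at 2.06 FPKM in the floxed control, from 90 fragments. It was listed at 0 in the endothelial deletion and was at least 29.1-fold lower there, taking 3 fragments in that library as the floor. The 95% upper limit of its log2 ratio was -4.53, and -1.80 with fragments divided by 6. Ighg1 (chromosome 12, 113325240 to 113330523), whose subclass dominates responses driven by interleukin 4, differed least among the gamma genes. It was at 3.996 FPKM in the floxed control and 1.83 FPKM in the endothelial deletion, from 180 and 80 fragments, with a log2 ratio of -1.12 (interval -1.52 to -0.74). On the log2(FPKM + 1) scale it was -0.82, short of 2-fold.

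Igha (chromosome 12, 113254830 to 113260236), the gene of the alpha chain of IgA, the class exported across mucosal surfaces, is the last constant gene of the locus. It was at 110 FPKM in the floxed control and 55.6 FPKM in the endothelial deletion. Its 5122 and 2498 fragments gave a log2 ratio of -0.99 (interval -1.06 to -0.92), and with the pseudocount it was -0.98, just short of 2-fold. After rescaling to the common total the value was -1.13, past 2-fold. Igha thus lay beside the threshold, while Ighm at the other end of the locus did not differ beyond counting error. Ighe, the gene of IgE and not among the 10, had 1 fragment in the floxed control and none in the endothelial deletion.

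**Figure D2:**
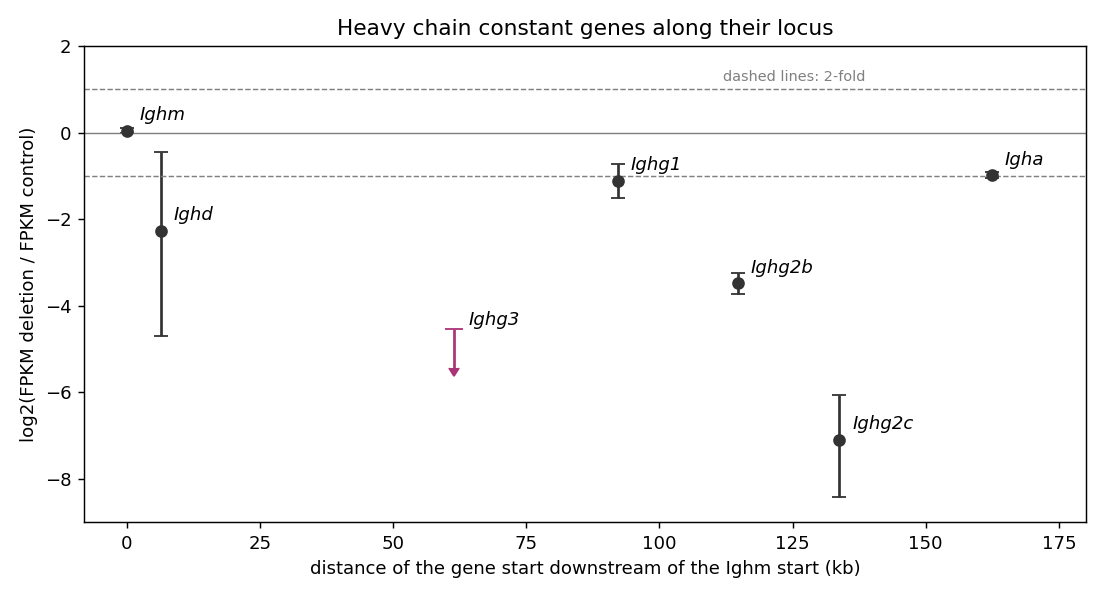
Log2 ratio of FPKM (deletion over control, no pseudocount) of the 7 heavy chain constant genes against the distance of each gene start downstream of the Ighm start in kb. Bars are 95% counting intervals and the arrow at Ighg3 starts at its upper limit. The ratios do not follow the order of the genes: Ighm lies at 0.044, Ighg2c at -7.10 and Igha, furthest downstream, at -0.99.

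Igkc (chromosome 6, 70726435 to 70726966, plus strand), the constant gene of all kappa light chains, had the highest FPKM of the 10 in both libraries. It was at 467 FPKM in the floxed control and 208 FPKM in the endothelial deletion, from 4317 and 1863 fragments. It ranked 70th among all genes by FPKM in the floxed control and 200th in the endothelial deletion. The log2 ratio was -1.17 (interval -1.25 to -1.09), a 2.25-fold difference. Its exon lies within the same-strand noncoding gene Gm30211, which was at 0.36 and 0.62 FPKM in control and deletion.

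The lambda genes differed in opposite directions. Iglc2 (chromosome 16, 19198396 to 19200351, minus strand) was at 22.5 FPKM in the floxed control and 62.7 FPKM in the endothelial deletion. Its 239 and 646 fragments gave a 2.79-fold higher level there, with a log2 ratio of 1.48 (interval 1.26 to 1.70). It was the single member of the 10 that was at least 2-fold higher.

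Iglc1 (chromosome 16, 19061618 to 19062071, minus strand) was at 3.80 FPKM in the floxed control, from 30 fragments, and was listed at 0 in the endothelial deletion. It was at least 9.69-fold lower there against the floor of 3 fragments, but with fragments divided by 6 the upper limit of its log2 ratio was 0.17, so that interval included equality. Iglc3 was at 9.04 FPKM in the floxed control, from 71 fragments, and was also listed at 0 in the endothelial deletion, at least 22.9-fold lower. Iglc3, the near copy of Iglc2, was therefore absent from the counts of the library in which Iglc2 was highest, and how fragments were divided between them was not tested. An antisense gene, 2010309G21Rik, overlaps Iglc1 and Iglc3 and held 1 fragment in the floxed control and none in the endothelial deletion.

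The variable segments of the lambda locus also differed in opposite directions. In mice Iglv1 joins mainly to the Iglc1 and Iglc3 clusters and Iglv2 mainly to Iglc2. Iglv1 was at 20.2 FPKM in the floxed control and 1.37 FPKM in the endothelial deletion, and Iglv2 was at 29.7 and 121 FPKM. Iglv3 had 5 fragments in the floxed control and none in the endothelial deletion. Of the lambda joining segments, Iglj1 and Iglj3p had 4 and 2 fragments in the floxed control, and all 5 were listed at 0 in the endothelial deletion. Summed over genes, heavy chain variable segments stood at 669 and 320 FPKM and kappa variable segments at 556 and 271 FPKM in control and deletion. Of the 113 heavy chain variable segments in the table, 54 were above 0 in the floxed control and 25 in the endothelial deletion, and of the 100 kappa segments 39 and 19 were. Among all genes, 21891 were above 0 in the floxed control and 18217 in the endothelial deletion. The highest heavy chain variable segment held 15.2% of their summed FPKM in the floxed control, and a different segment held 41.0% in the endothelial deletion. For kappa the same segment was highest in both libraries, with 16.4% and 53.6% in control and deletion. Iglv2 held 58.7% and 98.9% of the lambda variable sum. How far a few rearranged segments set the constant gene levels and shares was not tested.

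The make-up of the constant region mRNA therefore differed between the libraries, and shares within a library do not depend on how the libraries are scaled to each other. Of the summed FPKM of the 7 heavy chain genes, Ighm held 45.3% in the floxed control and 73.4% in the endothelial deletion. The gamma genes together held 24.0% and 2.40%, and Igha held 30.5% and 24.1%. Counted in fragments, the gamma share was 22.4% (95% Clopper-Pearson interval 21.7% to 23.1%, 3027 of 13539) in the floxed control and 2.96% (2.60% to 3.35%, 240 of 8111) in the endothelial deletion, intervals that do not overlap. The Igha share in fragments was 37.8% (37.0% to 38.7%) and 30.8% (29.8% to 31.8%), which do not overlap either.

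The order of levels among the genes depends on the length used. FPKM divides by the whole gene model, which includes membrane exons and long 3' ends that the secreted form lacks, 2668 bases for Igha against 1100 in its shorter transcript. Per base of the shorter transcripts, a calculation chosen after seeing the data, Igha held 42.3% of the heavy chain in the floxed control and Ighm 32.7%, so the order of these genes turned there. Ighg2b, with 14.4%, then also stood above Ighg2c, with 8.11%, in the floxed control. In the endothelial deletion Ighm stayed above Igha, at 59.1% against 37.3%. On the same lengths Ighm stood above Igkc there, at 214 against 208 FPKM, and Igha stood above Iglc2, at 135 against 83.7 FPKM. By FPKM all neighbours in the order of the 10 genes had separate 95% Poisson intervals in the floxed control except Ighg1 and Iglc1, at 3.996 and 3.80 FPKM. In the endothelial deletion the intervals of Ighg2c and Ighd overlapped, as did those of Ighd and Ighg3 and of Ighg3 and Iglc1, and the other neighbours were separate.

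Kappa held 94.7% of the summed FPKM of the 3 light chain genes in the floxed control and 76.8% in the endothelial deletion. In fragments this was 94.1% (93.4% to 94.8%, 4317 of 4586) and 74.3% (72.5% to 76.0%, 1863 of 2509). The ratio of kappa to lambda was 17.8 in the floxed control and 3.32 in the endothelial deletion, and 13.2 in the floxed control with Iglc3 counted among the lambda genes. Summed light chain FPKM exceeded summed heavy chain FPKM in both libraries, by 1.36-fold and 1.18-fold. With shorter transcript lengths this turned, and the heavy chain sum was 1.26-fold and 1.24-fold above the light chain sum. The heavy chain sum was 1.57-fold lower in the endothelial deletion (230 against 362 FPKM) and the light chain sum 1.82-fold lower (271 against 493 FPKM).

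**Figure D3:**
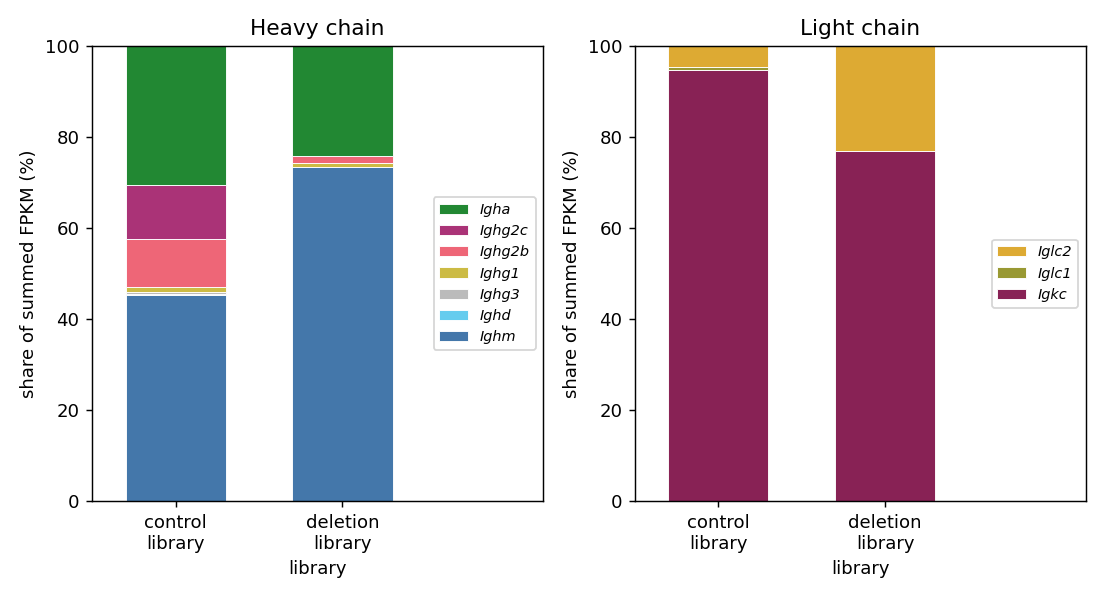
Share of each gene in the summed FPKM of the 7 heavy chain genes (left) and the 3 light chain genes (right), in percent, for control and deletion. Ighm takes 45.3% and 73.4% of the heavy chain, the gamma genes together 24.0% and 2.40%, and Iglc2 takes 4.56% and 23.2% of the light chain.

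The lists of other genes of antibody-making cells are read beside the 5.86% of all measured genes that were past 2-fold either way, a share at which lists this short would hold few such genes. In the plasma cell list, 1 of 11 genes that averaged 1 FPKM or more was at least 2-fold lower, none was higher, and the median log2 ratio was -0.015. The list's 16 genes summed to 148 FPKM in the floxed control and 149 in the endothelial deletion, with none at 0 in the floxed control and 1, Tnfrsf17, at 0 in the endothelial deletion. Several of these genes serve secretion in many cell types. The gene past 2-fold was Mzb1, a chaperone of immunoglobulin folding, at 5.21 and 2.10 FPKM in control and deletion.

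Jchain, which links IgM and IgA into polymers, was at 22.0 FPKM in the floxed control and 14.1 FPKM in the endothelial deletion, from 963 and 598 fragments, with a log2 ratio of -0.64 (interval -0.79 to -0.49). Pou2af1, a coactivator of immunoglobulin promoters, was at 2.14 and 0.84 FPKM, 2.56-fold lower without a pseudocount. The highest ratios were those of Creld2, an endoplasmic reticulum stress gene, at 24.4 and 33.3 FPKM, and Tnfrsf13b, a receptor for B cell survival factors, at 3.79 and 4.63 FPKM. Xbp1, the transcription factor of the secretory programme, was at 24.8 and 27.6 FPKM, and the plasma cell surface gene Sdc1 at 1.69 and 1.29 FPKM. Jchain, Mzb1 and Pou2af1 thus lay lower, while of the 11 measured genes of the list 6 had ratios below 0 and 5 above 0. Under the mean of 1 FPKM, Slamf7 was at 0.58 and 0.22 FPKM in control and deletion, from 46 and 17 fragments. Its log2 ratio was -1.39 (interval -2.29 to -0.56). Eaf2 and Tnfrsf17 also lay lower, from 15 and 11 and from 5 and 0 fragments. Prdm1, with 19 fragments in each library, and Derl3, with 28 in each, had ratios just above 0. Irf4 was at 2.39 and 2.28 FPKM, Txndc5 at 26.9 and 26.6 FPKM and Sec11c at 31.0 and 33.0 FPKM in control and deletion. The part of plasma cell RNA in the constant gene values was not tested.

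In the B cell receptor list none of the 9 measured genes passed 2-fold in either direction, and the median log2 ratio was -0.0018. Cd79a, a signalling chain of the receptor, was at 3.48 FPKM in the floxed control and 6.93 in the endothelial deletion. The lowest ratios were those of Cd72, an inhibitory coreceptor, at 2.69 and 1.77 FPKM, and Plcg2, a signalling phospholipase, at 23.1 and 21.2 FPKM. Cd79b, the partner of Cd79a, was at 5.99 and 6.14 FPKM. The list's 16 genes summed to 141 and 143 FPKM, mostly from genes such as Cd81, Btk and Syk that other blood cells also express, while Ms4a1 (CD20), a marker of mature B cells, was at 0.084 and 0.058 FPKM. Cd79a therefore lay higher in the library in which most constant genes lay lower.

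None of the 5 measured genes of the surrogate light chain and recombination list passed 2-fold, and all 5 had ratios above 0. Igll1 and Vpreb1, which form the surrogate light chain of B cell precursors, were at 0.90 and 1.10 FPKM and at 2.16 and 2.72 FPKM in control and deletion. The highest ratio was that of Vpreb3, at 1.88 and 2.83 FPKM, and the lowest that of Tcf3, a transcription factor gene, at 110 and 116 FPKM. The genes of this list under the mean of 1 FPKM went both ways. Vpreb2 was at 0.23 and 1.64 FPKM from 3 and 21 fragments, and Rag1 and Rag2 also lay higher in the endothelial deletion. Ebf1, at 0.48 and 0.25 FPKM from 81 and 41 fragments, lay lower there. So did Pax5, at 0.75 and 0.53 FPKM from 116 and 79 fragments, and Il7r, at 0.54 and 0.37 FPKM from 44 and 29.

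None of the 13 measured genes of class switch recombination passed 2-fold, and their median log2 ratio was -0.014. The ends of the list were Exo1, an exonuclease, at 5.42 FPKM in the floxed control and 6.70 in the endothelial deletion, Shld1 at 1.63 and 2.13 FPKM, Xrcc4 at 1.56 and 1.13 FPKM, and Shld2 at 2.58 and 2.08 FPKM. Shld1 and Shld2 belong to the shieldin complex and Xrcc4 to the end-joining machinery, which also repair DNA breaks in other cells.

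**Figure D4:**
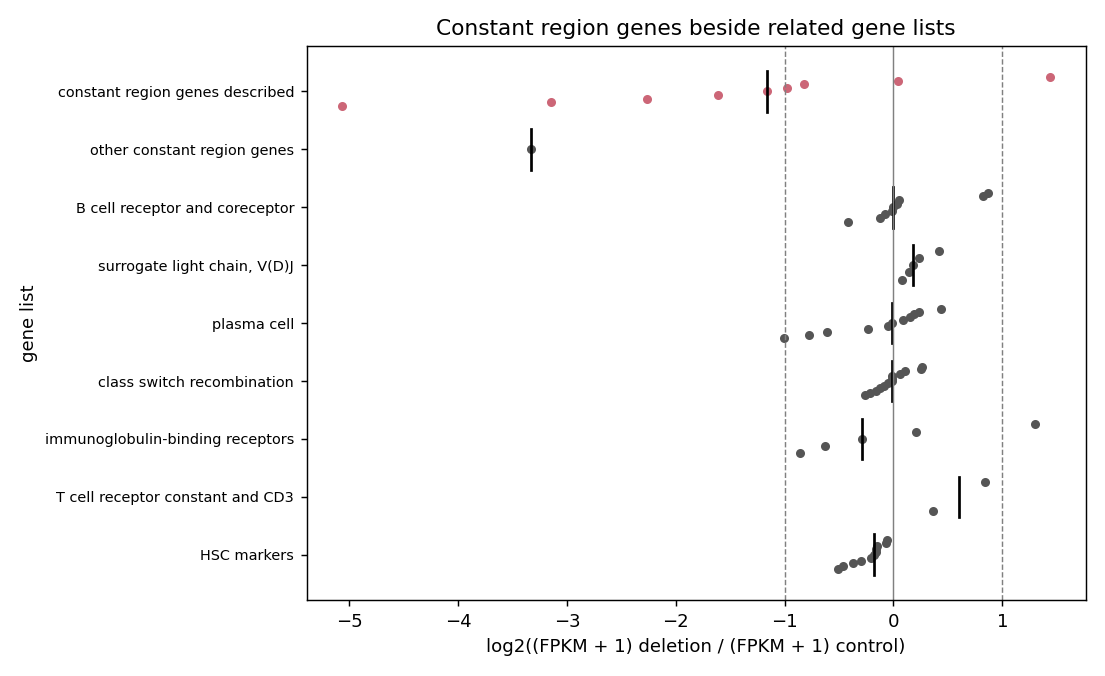
Log2 ratio on the log2(FPKM + 1) scale for each gene that averaged 1 FPKM or more, by gene list, with a bar at each list's median. Points for the constant region genes described run from -5.07 to 1.44, whereas all points of the B cell receptor, recombination and class switch lists lie within the dashed lines at 2-fold.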

How the data were processed

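RNA of sorted HSCs was sequenced as 150-base paired reads, per the labels' protocols, with 1 library per genotype. The authors deposited FPKM for 54531 Ensembl genes. The submitters' processing notes list Bowtie 0.12.2 and mm8 without saying what each was used for. What counted the fragments, and with which annotation, is not given in the sources used here. Each column was matched to its sample by the sample's description. Positions, exon lengths and sequences are from GENCODE M21 on GRCm38, not the build in the notes.

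FPKM times exon length fell within 0.02 of a whole multiple of 1 step for 96.5% (control) and 96.1% (deletion) of genes above 0, which gave the depths and the fragments per gene, whole for all 10 genes. A ratio printed with a counting interval or limit, a fold difference of a named gene or a ratio of sums has no pseudocount. Calls past 2-fold and other ratios use the deletion value of log2(FPKM + 1) minus the control value, which understates differences of low genes. Called genes are at least 2-fold apart at a mean of at least 1 FPKM. Intervals reflect counting error alone, because copies made by PCR are not independent molecules. Scripts used Python 3.11.15, pandas 2.3.3, SciPy 1.17.1 and Biopython 1.88 and were tested on simulated data. The genes named were all 10, the 2 highest and 2 lowest ratios of each related list, and genes fixed by name. Gm30211, 2010309G21Rik, Pou2af1, Vpreb2, Ms4a1, Tnfrsf17, Iglv1, Iglv2 and some HSC markers were added after their values were seen or fall outside that rule. The same holds for Ighe, Iglv3, Iglj1, Iglj3p, Cd81, Btk, Syk, Cd3d, Cd3e, Cd3g and Cd247. It also holds for Ebf1, Pax5, Il7r, Rag1, Rag2, Irf4, Txndc5, Sec11c, Slamf7, Eaf2, Prdm1 and Derl3. The members and lists were chosen with earlier results of these data known. The alternatives were other pseudocounts, minimums, thresholds and scalings. Some genes that the rule names are not reported here.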

Additional observations from a re-analysis of the deposited data

How the results depend on the processing

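No paired analysis was possible because there was 1 library per genotype. The number of constant genes at least 2-fold lower was 5, and it was 3 with a pseudocount of 5 FPKM, with a minimum mean of 5 FPKM, with a 4-fold threshold, or, added after seeing the data, among genes of at least 100 fragments. The number higher was 1, and 0 at 4-fold. In the other settings run these numbers were 5 to 7 and 1. Rescaled to a common total, the summed log2 ratio was -0.80 for the heavy chain, against -0.65, and -1.01 for the light chain, against -0.87, and the heavy chain gave -0.61 without mitochondrially encoded genes. Of the 10 log2 ratios, Ighm alone changed sign, under the common total. In fragments, heavy chain shares in the floxed control were 39.7% for Ighm, 37.8% for Igha, 13.0% for Ighg2b, 7.32% for Ighg2c and 1.33% for Ighg1, and in the endothelial deletion 66.2% for Ighm, 30.8% for Igha and 1.89% for Ighg2b. The kappa share there was 74.3%. Per base of the shorter transcripts, control shares were 32.7% for Ighm, 42.3% for Igha, 14.4% for Ighg2b, 8.11% for Ighg2c, 1.52% for Ighg1 and 0.76% for Ighg3, and deletion shares 59.1% for Ighm, 37.3% for Igha, 2.26% for Ighg2b and 1.22% for Ighg1. On these lengths the light chain sum over the heavy chain sum was 0.79 in control and 0.81 in deletion, against 1.36 and 1.18. With Iglc3 among the lambda genes the control kappa share was 93.0%. Depth limits Ighd, Iglc1 and, in the endothelial deletion, Ighg2c and Ighg3.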

Other observations

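Of 5 measured genes for receptors that bind antibody, 1 was at least 2-fold higher in the endothelial deletion, Fcgr3, an activating IgG receptor of myeloid cells, at 17.9 against 6.66 FPKM. Over all measured genes 2.47% were at least 2-fold higher. Fcgr2b, the inhibitory IgG receptor, was at 2.205 against 1.77 FPKM. The lowest ratios were those of Fcer1g, the signalling chain shared by Fc receptors, at 13.9 against 26.1 FPKM, and Fcgrt, the neonatal Fc receptor, at 2.03 against 3.70 FPKM. Pigr, which carries IgA and IgM across epithelia, was listed at 0 in both libraries.

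Constant genes of the T cell receptor stood at low levels in both libraries. Trbc1 was at 4.84 FPKM in the endothelial deletion and 3.53 in the floxed control, Trbc2 at 3.78 against 1.66 FPKM, and Trac at 0.89 against 0.68 FPKM. Cd3d, Cd3e and Cd3g, signalling chains of that receptor, held 2, 6 and 7 fragments in the floxed control and were listed at 0 in the endothelial deletion. Cd247, a further signalling chain, was at 0.11 FPKM in the endothelial deletion and 0.68 in the floxed control, from 10 and 63 fragments. Its log2 ratio was -2.61 (interval -3.74 to -1.64). Trbc2, from 20 and 44 fragments in control and deletion, had a log2 ratio in the opposite direction, 1.18 (interval 0.39 to 2.02). That of Trbc1, from 46 and 61 fragments, was 0.45, with an interval of -0.12 to 1.04 that included equality.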
